A study of Rattus norvegicus with 15 samples.

Results

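Imprinted growth genes were followed as a set of 9 members, Igf2, H19, Meg3, Dlk1, Cdkn1c, Peg3, Mest, Grb10 and Plagl1, chosen by name from the 37991 genes of a count table of rat multifidus muscle. The symbol matched 8 of them, and Meg3 was matched by its gene ID because the table lists it under the older symbol RGD1566401. All 9 passed the filter on low counts that left 17201 genes for testing.

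The libraries came from wild type male Sprague Dawley rats aged 12 weeks. Control rats were not operated and gave 2 libraries, and rats with spinal surgery and no injection (Surgery) gave 2. Operated rats that received plasma-derived mitochondria (pMT, isolated from human blood), at 25 μg in 100 μL per site and 50 μg per rat, gave 4 libraries, and operated rats given the same dose of pMT with 150 μg of cholecalciferol (vitamin D) per site, 300 μg per rat, gave 4 (pMT/VitD). Operated rats given the same dose of cholecalciferol without pMT gave 3 (VitD). The operation was a hemilaminectomy with ligation of a lumbar spinal nerve, so that the muscle was both injured and denervated. The pMT group was injected on day 14, and the Control, Surgery and pMT groups were harvested on day 28. These days are not given in the sources used here for the groups with vitamin D. No group received the injection buffer alone, so pMT and its buffer cannot be told apart. Nothing in the labels ties libraries to animals, so the libraries of a group cannot be assumed to come from separate animals. The p-values measure the spread between these libraries only.

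Imprinted genes are transcribed mainly from the copy inherited from one parent. Many of them set growth before birth, fall to low levels in adult tissue, and come on again in muscle that regenerates. Igf2, Dlk1, Peg3, Mest and Plagl1 are expressed from the paternal copy, H19, Meg3 and Cdkn1c from the maternal copy, and Grb10 from one or the other depending on the tissue. Igf2 and H19 lie side by side and share enhancers, with Cdkn1c in the adjacent imprinted domain, while Dlk1 and Meg3 share another domain with Dio3 at its far end. Read counts over a whole gene do not separate the parental copies, so the values below are total levels. In bulk muscle, fewer cells of a type and less RNA per cell cannot be told apart.

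Total counts per library ranged from 52342134 to 73557878. The markers of skeletal muscle fibre were abundant in every library, with a summed level from 88300 to 158000 CPM (counts scaled to a common library size with TMM factors), and none of the 44 marker genes found for any cell type had a count of 0 in a library. Library 4 of the pMT group and library 4 of the pMT/VitD group stood apart from the others of their groups. Genes of the mitochondrial genome took 22.6% of counts in pMT 4 and 13.5% to 17.7% in pMT/VitD 1 to 3, beside 11.5% in pMT/VitD 4, 11.1% to 12.9% in pMT 1 to 3 and 10.7% to 15.6% in the other groups. The rank correlation of log2 level, relative to the mean, with relative effective gene length was -0.54 to -0.25 in pMT 4 and pMT/VitD 1 to 3 and -0.07 to 0.61 in the other libraries. Over all tested genes, the deviations of pMT 4 and pMT/VitD 4 from their group means had a correlation of -0.5, beside -0.17 to 0.17 in the other pairs of libraries with the same number. In these measures pMT 4 lay with or beyond pMT/VitD 1 to 3, and pMT/VitD 4 with pMT 1 to 3. Whether the labels of the 2 libraries were exchanged was not tested. The labels were kept, and the doubt bears on every value given for pMT or pMT/VitD alone. The counts of members called in most comparisons are therefore given with and without these 2 libraries, as are some values of single members. They were singled out from their values, which bears on any comparison of pMT/VitD with pMT.

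Surgery and VitD muscle held more RNA of 6 of the 9 genes than muscle of the pMT groups. Against Surgery and VitD together, the pMT and pMT/VitD libraries were lower for Dlk1, Igf2, H19, Mest, Peg3 and Cdkn1c, from 3.25-fold for Dlk1 to 1.58-fold for Cdkn1c. No member was called as higher. The test, edgeR's quasi-likelihood F-test with Benjamini-Hochberg adjustment over all genes, called 23.3% of genes in this comparison and 13.3% as lower. The median log2 fold change was -0.75 over the 9 members and 0.01 over all genes. In CPM, every pMT-group library lay below every Surgery and VitD library for 3 members, H19, Dlk1 and Peg3, and for 7.15% of all genes. The 6 genes were called in all 23 of the alternatives run, and Plagl1 was called as well in 5 of them.

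**Figure D1:**
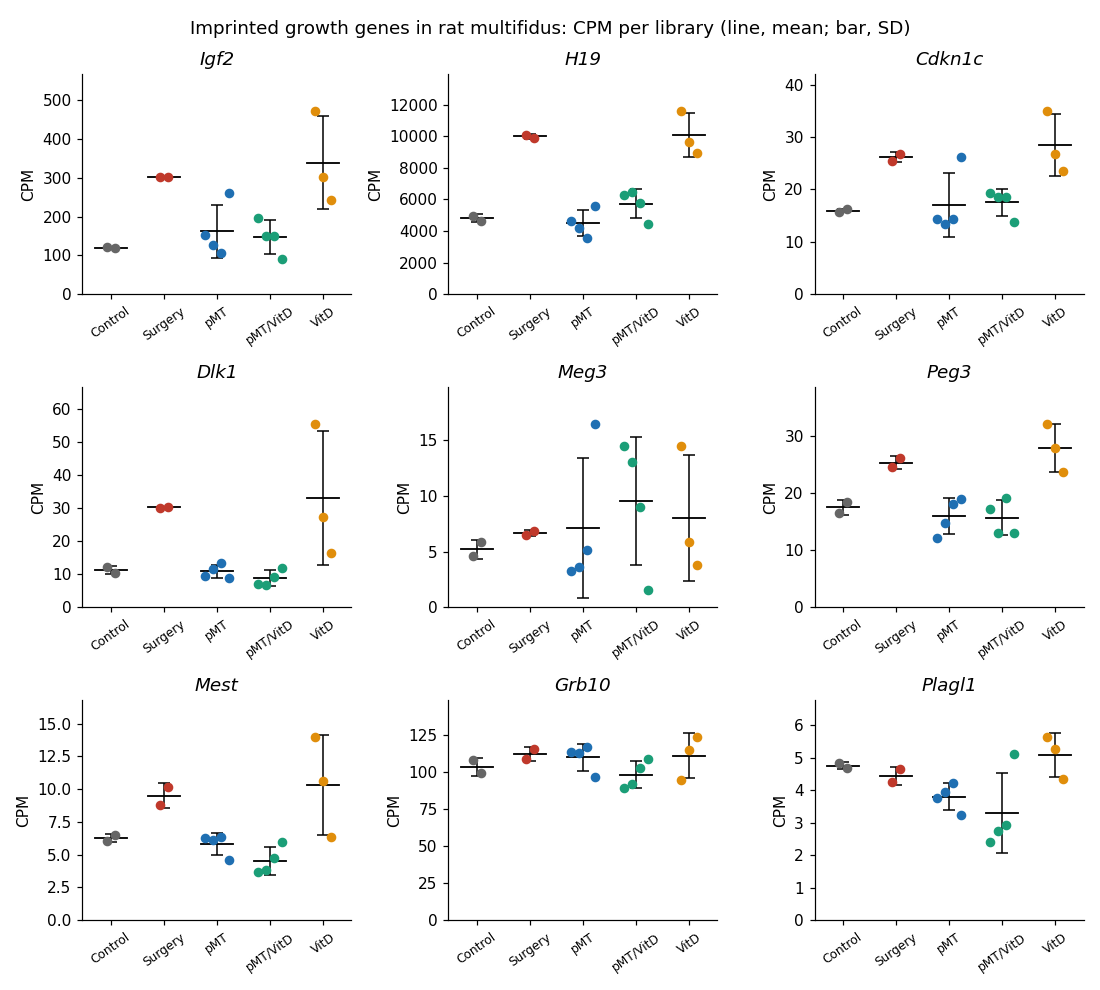
CPM of each of the 9 genes (vertical axes, linear from 0) in the 15 libraries by group (horizontal axis). Points are libraries, the line is the group mean and the bar its SD. For H19, Dlk1 and Peg3 every pMT and pMT/VitD point lies below every Surgery and VitD point, while the Grb10 points of all groups lie between 89.2 and 124 CPM.

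H19, a long noncoding RNA that is among the most abundant imprinted transcripts of muscle, had the highest level of the set. It measured 4970 and 4620 CPM in Control and 10100 and 9870 CPM in Surgery. The pMT libraries held 4630, 4210, 3570 and 5560 CPM, the pMT/VitD libraries 6260, 6450, 5740 and 4460 CPM, and the VitD libraries 11600, 9630 and 8960 CPM. The Surgery and VitD libraries were all above the highest of the other groups, and the Control values fell within the range of the pMT groups. H19 was 2.08-fold higher in Surgery than in Control (log2 fold change 1.06 ± 0.235 SE, adjusted p = 0.0412), the only member called where 1.55% of all genes were called and 1.25% were higher. It was 2.22-fold lower in pMT than in Surgery (log2 fold change -1.15 ± 0.195 SE, adjusted p = 0.00877) and 1.74-fold lower in pMT/VitD than in Surgery (log2 fold change -0.8 ± 0.197 SE, adjusted p = 0.0265). As a share of all counts, H19 took 0.973% to 1.39% in Surgery and VitD and 0.389% to 0.559% elsewhere.

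H19 also carries the hairpin of a microRNA, miR-675, in its first exon. Its 2 mature forms are shown because they are the processed product that H19 is best known for. The sequences are from RefSeq on the GRCr8 build, 5′ to 3′, with the seed (bases 2 to 8) in capitals.
rno-miR-675-5p (chr1:207161800-207161821, minus strand): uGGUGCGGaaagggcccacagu
rno-miR-675-3p (chr1:207161766-207161786, minus strand): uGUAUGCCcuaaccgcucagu
The seeds of the arms differ. The hairpin's own line in the table held 7 to 11 counts in the Surgery and VitD libraries and 3 to 6 counts elsewhere. Reads on the hairpin cannot be told apart from reads of H19, and the mature forms were not measured by these libraries.

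Igf2, the fetal insulin-like growth factor that myoblasts secrete as they differentiate, measured 121 and 118 CPM in Control and 303 and 301 CPM in Surgery. Levels in pMT were 153, 128, 106 and 260 CPM and those in pMT/VitD 197, 150, 150 and 91 CPM. The VitD libraries held 473, 301 and 242 CPM. All pMT-group libraries but pMT 4 were below every Surgery and VitD library, and pMT 4 lay above VitD 3. Igf2 was 2.08-fold lower in the pMT groups than in Surgery and VitD (log2 fold change -1.05 ± 0.224 SE, adjusted p = 0.00433). Against Control it was 2.84-fold higher in VitD (adjusted p = 0.0287 by edgeR). In Surgery its log2 fold change against Control was 1.34 (95% interval 0.48 to 2.21), which was not called (adjusted p = 0.103 by edgeR). Without pMT 4 and pMT/VitD 4 it was called there (log2 fold change 1.37, adjusted p = 0.0176) and in pMT against Surgery (-1.24, adjusted p = 0.0159), where the fit of all libraries gave -0.9 with an adjusted p of 0.214 by edgeR.

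The ratio of H19 to Igf2, both as TPM (the deposited level per gene length), was 62.5 and 67.1 in Control and 53.8 and 54 in Surgery. It ran from 33.9 in pMT 4 to 52.5 in the pMT group, from 52.3 to 80 in the pMT/VitD group and from 39.2 to 59.2 in the VitD group. Control lay above Surgery, pMT and VitD, Surgery lay just above pMT, and the other pairs of groups overlapped.

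Cdkn1c encodes the cyclin-dependent kinase inhibitor p57, which holds differentiating myoblasts out of the cell cycle. It measured 15.7 and 16.2 CPM in Control and 25.5 and 26.8 CPM in Surgery. The pMT libraries held 14.4, 13.3, 14.4 and 26.1 CPM, the pMT/VitD libraries 19.4, 18.5, 18.5 and 13.7 CPM, and the VitD libraries 35, 26.7 and 23.6 CPM. As for Igf2, only pMT 4 entered the range of Surgery and VitD in CPM. In TPM neither gene overlapped. Cdkn1c was at 9.95 to 13.8 TPM in the pMT groups and 18.2 to 28.2 TPM in Surgery and VitD. Igf2 was at 33.5 to 71.6 TPM and 99.6 to 202 TPM. The log2 fold change of the pMT groups against Surgery and VitD was -0.66 ± 0.157 SE (adjusted p = 0.00852 by edgeR) and without pMT 4 and pMT/VitD 4 it was -0.76 ± 0.0924 SE (adjusted p = 0.00013). Over the 5 groups Cdkn1c missed the threshold (adjusted p = 0.0515 by edgeR), and it passed when those 2 libraries were left out.

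Dlk1, a membrane protein related to Notch ligands that marks committed progenitors and regenerating fibres, had the largest fold change of the set between the pMT groups and the other operated groups. It measured 12.1 and 10.3 CPM in Control and 30.2 and 30.3 CPM in Surgery. Values were 9.5, 11.7, 13.3 and 8.76 CPM in pMT, 7.13, 6.62, 9.12 and 12 CPM in pMT/VitD and 55.6, 27.2 and 16.4 CPM in VitD. The pMT groups and the other operated groups did not overlap, although VitD 1 was far above VitD 3. Dlk1 was 2.79-fold lower in pMT than in Surgery (log2 fold change -1.48 ± 0.342 SE, adjusted p = 0.0419) and 3.47-fold lower in pMT/VitD than in Surgery (log2 fold change -1.79 ± 0.343 SE, adjusted p = 0.0083). It was 2.95-fold higher in VitD than in Control (adjusted p = 0.0286 by edgeR), and in Surgery its log2 fold change against Control was 1.43 (95% interval 0.54 to 2.32, adjusted p = 0.0958), which was not called. The call in pMT against Surgery was close to the threshold. Without pMT 4 and pMT/VitD 4 the value was -1.4 and was not called (adjusted p = 0.0688 by edgeR). Nor was it called without any 1 of Control 1, Control 2, Surgery 1, Surgery 2, the 4 pMT libraries, pMT/VitD 1, pMT/VitD 3 or VitD 2, or with scaling by library size, the length trend removed, genes with at least 1 count kept, or the replicate block.

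Meg3, the maternally expressed noncoding RNA of the same domain, had another pattern. It measured 4.58 and 5.82 CPM in Control, 6.45 and 6.89 CPM in Surgery and 14.5, 5.84 and 3.79 CPM in VitD. The pMT libraries held 3.27, 3.57, 5.15 and 16.5 CPM and the pMT/VitD libraries 14.5, 13.1, 9.03 and 1.58 CPM. Each pMT group held high and low libraries, with pMT 4 the highest of all and pMT/VitD 4 the lowest. The edgeR fit of all libraries called Meg3 in no comparison, and its log2 fold change in the pMT groups against Surgery and VitD, 0.17, had a 95% interval of -0.94 to 1.27. The interval holds the values of Peg3 and Cdkn1c in that comparison, and those of Dlk1, Igf2, H19 and Mest lie below it. That value was -0.08 without pMT 4 and pMT/VitD 4 and -0.16 with scaling by library size alone.

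Dio3, the deiodinase that inactivates thyroid hormone and the third gene of the domain, was listed among the other imprinted genes. Its level was low, at 0.41 and 0.117 CPM in Control and 1.32 and 1.08 CPM in Surgery. Values were 0.505, 0.23, 0.317 and 0.203 CPM in pMT, 0.151, 0.148, 0.538 and 0.253 CPM in pMT/VitD and 2.63, 1.56 and 0.664 CPM in VitD. As for Dlk1, no pMT-group library reached the lowest Surgery or VitD library. The log2 fold change of the pMT groups against Surgery and VitD was -2.25 ± 0.388 SE (adjusted p = 0.00113 by edgeR).

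Peg3, a zinc finger protein expressed in satellite cells and interstitial progenitors, measured 16.6 and 18.5 CPM in Control and 24.6 and 26.2 CPM in Surgery. The pMT libraries held 12.2, 14.7, 18.2 and 19 CPM, the pMT/VitD libraries 17.3, 13.1, 19.2 and 13.1 CPM, and the VitD libraries 32.2, 27.9 and 23.7 CPM. There was no overlap between the pMT groups and the other operated groups. The log2 fold change was -0.75 ± 0.127 SE between them (adjusted p = 0.001 by edgeR) and -0.7 ± 0.189 SE in pMT/VitD against Surgery (adjusted p = 0.0398). The latter call was lost with the length trend removed (-0.53, adjusted p = 0.189 by edgeR), with the replicate block, in the fit of those groups alone, and without any 1 of Control 1, Control 2, Surgery 1, Surgery 2, pMT 2, pMT/VitD 1, pMT/VitD 2, pMT/VitD 4 or VitD 2. Without pMT 4 and pMT/VitD 4 together it was kept (-0.63, adjusted p = 0.0291 by edgeR). Peg3 was then also called in pMT against Surgery (-0.77, adjusted p = 0.0395).

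Mest encodes an enzyme of the alpha/beta hydrolase fold that is best known from growing fat and mesoderm. It measured 6.07 and 6.48 CPM in Control and 8.83 and 10.2 CPM in Surgery. Values were 6.25, 6.09, 6.34 and 4.57 CPM in pMT, 3.65, 3.8, 4.71 and 5.94 CPM in pMT/VitD and 14, 10.6 and 6.34 CPM in VitD. Only VitD 3 came down to the level of the pMT groups. The log2 fold change was -0.95 ± 0.169 SE in the pMT groups against Surgery and VitD (adjusted p = 0.00144 by edgeR) and -1.07 ± 0.252 SE in pMT/VitD against Surgery (adjusted p = 0.0227).

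Grb10, an adaptor that dampens insulin and IGF receptor signalling, ran from 89.2 to 124 CPM over the 15 libraries. Its group means were 104 ± 6.4 CPM in Control (SD, n = 2), 112 ± 5 CPM in Surgery (n = 2), 110 ± 9.02 CPM in pMT (n = 4), 98.3 ± 9.24 CPM in pMT/VitD (n = 4) and 111 ± 15.1 CPM in VitD (n = 3). Control, at 99.4 and 108 CPM, lay just below Surgery, at 109 and 116 CPM, and the other pairs of groups overlapped or met. In TPM, Grb10 ran from 11.7 to 33, with 15.3 and 17.8 in Control and 22.8 and 31.6 in Surgery. The 95% interval of its log2 fold change between the pMT groups and the other operated groups was -0.29 to 0.09.

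Plagl1, a zinc finger transcription factor that activates several imprinted genes in embryos, ran from 2.42 to 5.65 CPM. It measured 4.84 and 4.68 CPM in Control and 4.25 and 4.65 CPM in Surgery. Values were 3.77, 3.95, 4.23 and 3.24 CPM in pMT, 2.42, 2.74, 2.92 and 5.12 CPM in pMT/VitD and 5.65, 5.27 and 4.35 CPM in VitD. All pMT-group libraries but pMT/VitD 4 were below every Control, Surgery and VitD library. The log2 fold change of the pMT groups against Surgery and VitD was -0.42 ± 0.158 SE and was not called (adjusted p = 0.0655 by edgeR). Without pMT 4 and pMT/VitD 4 it was -0.55 ± 0.0994 SE and was called (adjusted p = 0.0016).

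**Figure D2:**
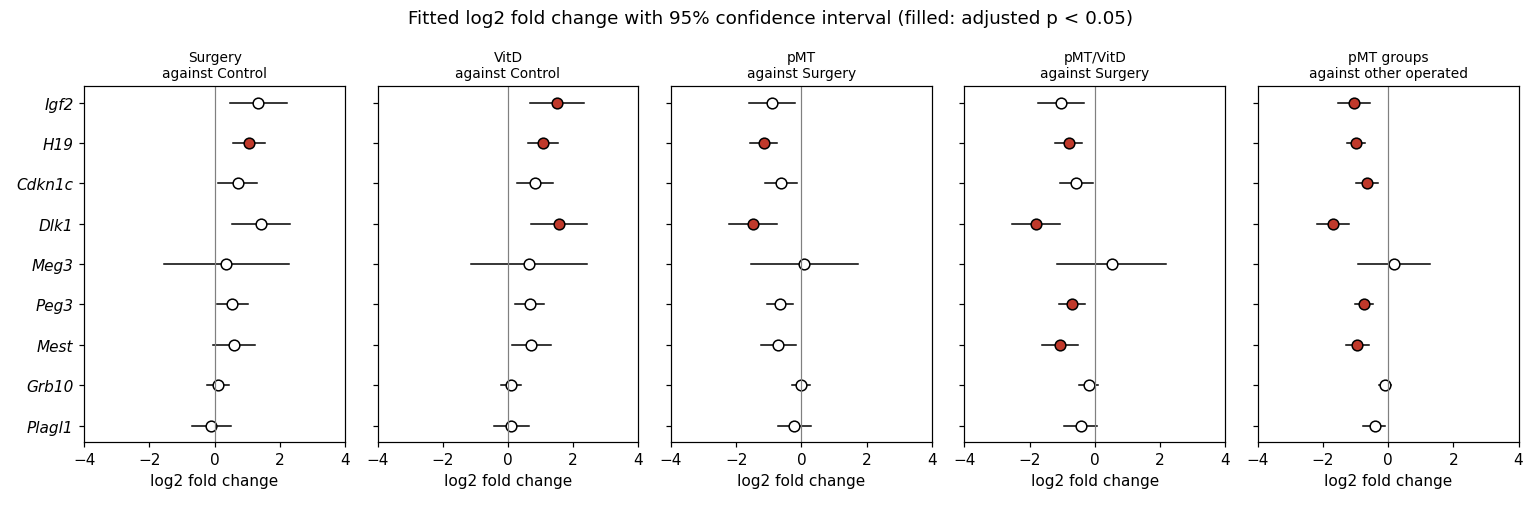
Fitted log2 fold changes (horizontal axes) with 95% confidence intervals for the 9 genes in 5 comparisons that share libraries. Filled points have an adjusted p under 0.05, which holds for 1 gene in Surgery against Control and for 6 genes in the pMT groups against Surgery and VitD. The interval of Meg3 is the widest in each panel.

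Across the comparisons, the members called and the share of all genes called differed widely. The test over the 5 groups called 5 of the 9 members (Igf2, H19, Dlk1, Peg3 and Mest) and 11.8% of genes. Igf2 lost this call with the length trend removed, where Cdkn1c was called in its place, and without any 1 of Control 1, Control 2, Surgery 1, Surgery 2 or VitD 1. VitD against Control called 3 (Igf2, H19 and Dlk1, all higher) and 8.67% of genes, 5.48% as higher, pMT against Surgery called 2 (H19 and Dlk1, both lower) and 1.94%, 1.55% as lower, and pMT/VitD against Surgery called 4 (H19, Dlk1, Peg3 and Mest, all lower) and 7.44%, 5.03% as lower. All operated groups together against Control called no member by edgeR and 0.0233% of genes. An unadjusted p under 0.05 by edgeR held for 2 members and 11.9% of genes. DESeq2 called 1 member and 204 of 17201 genes. The study's methods called a gene at a fold change of at least 2 and a p under 0.05 in edgeR's exact test. They state that p-values were adjusted by Benjamini-Hochberg, but not whether this threshold was set on adjusted values. In pMT against Surgery, this rule with an unadjusted p took 2 members, H19 and Dlk1, and 4.04% of genes. With an adjusted p it took the same 2 members and 2.72% of genes. Without pMT 4 and pMT/VitD 4 the counts were 7 members over the 5 groups, where 29.8% of genes were called, 3 in Surgery against Control (4.17%), 5 in VitD against Control (15.1%), 4 in pMT against Surgery (3.15%), 7 in pMT/VitD against Surgery (20.1%) and 7 in the pMT groups against Surgery and VitD (28.5%). These comparisons share the Surgery or Control libraries and are not independent of each other.

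The 2 Surgery libraries lay close together, with Igf2 at 302 ± 1.37 CPM (SD) and the embryonic myosin gene Myh3 at 330 ± 6.63 CPM. In VitD these genes were at 339 ± 120 and 483 ± 456 CPM, and in Control at 119 ± 2.45 and 26.3 ± 6.21 CPM. Whether the 2 libraries of a group came from separate animals was not tested. Calls against Control or Surgery were sensitive to losing 1 library. Surgery against Control called no member without either Control or either Surgery library, and none without pMT 1, pMT 2, pMT/VitD 1 or VitD 2, which enter only through the shared fit. Without either Surgery library, neither pMT nor pMT/VitD against Surgery called a member. Without either Control library, VitD against Control called no member, and without VitD 1 it called H19 alone. The share of all genes called moved as well. Leaving out 1 library brought the genes called down from 266 to 8 in Surgery against Control (without either Control library), from 1492 to 13 in VitD against Control (without Control 1), from 334 to 27 in pMT against Surgery (without Surgery 1) and from 1279 to 122 in pMT/VitD against Surgery (without Surgery 2).

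No member, and no other gene, passed the edgeR test in pMT or in pMT/VitD against Control (0% in both, with 528 and 496 genes at an unadjusted p under 0.05). Without pMT 4 and pMT/VitD 4 the test called 4 and 11 genes (0.0233% and 0.064%), none of them a member. The 95% intervals of the log2 fold change in pMT against Control were -0.31 to 1.19 for Igf2, -0.52 to 0.34 for H19 and -0.81 to 0.72 for Dlk1. These intervals do not show that the levels were equal. For Igf2, H19 and Dlk1 the interval leaves out the log2 fold change measured in Surgery against Control, 1.34, 1.06 and 1.43 in that order. The 95% intervals of those values were 0.48 to 2.21, 0.56 to 1.56 and 0.54 to 2.32. For Igf2 and Dlk1 they overlap the interval of pMT against Control, and both comparisons share the Control libraries.

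No member passed the edgeR test in VitD against Surgery (0% of genes called, 139 genes at an unadjusted p under 0.05). The 95% intervals of the log2 fold change were -0.44 to 0.47 for H19, -0.61 to 0.94 for Igf2 and -0.67 to 0.93 for Dlk1. The effect of pMT with vitamin D was set against that of pMT alone by the interaction term, the test of the difference itself. This called no gene by edgeR (0%, with 888 at an unadjusted p under 0.05), and 325 genes (1.89%), none of them a member, without pMT 4 and pMT/VitD 4. With all libraries its interval was -0.23 to 0.91 for H19 and -1.47 to 0.57 for Dlk1.

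pMT/VitD against pMT called no gene by edgeR with all libraries (0%, with 1737 genes at an unadjusted p under 0.05), and 93 genes, none of them a member, by DESeq2. Without pMT 4 and pMT/VitD 4 it called 18.3% of genes and 4 members. Among the remaining 3 libraries of each group, H19 was higher in pMT/VitD (log2 fold change 0.58 ± 0.136 SE, adjusted p = 0.0122), as were Cdkn1c (0.43 ± 0.125 SE, adjusted p = 0.0312) and Meg3 (1.61 ± 0.412 SE, adjusted p = 0.0209), and Plagl1 was lower (-0.56 ± 0.136 SE, adjusted p = 0.0144), all by edgeR. The libraries left out are those whose values lay nearest the other group, so the removal itself widens this difference.

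**Figure D3:**
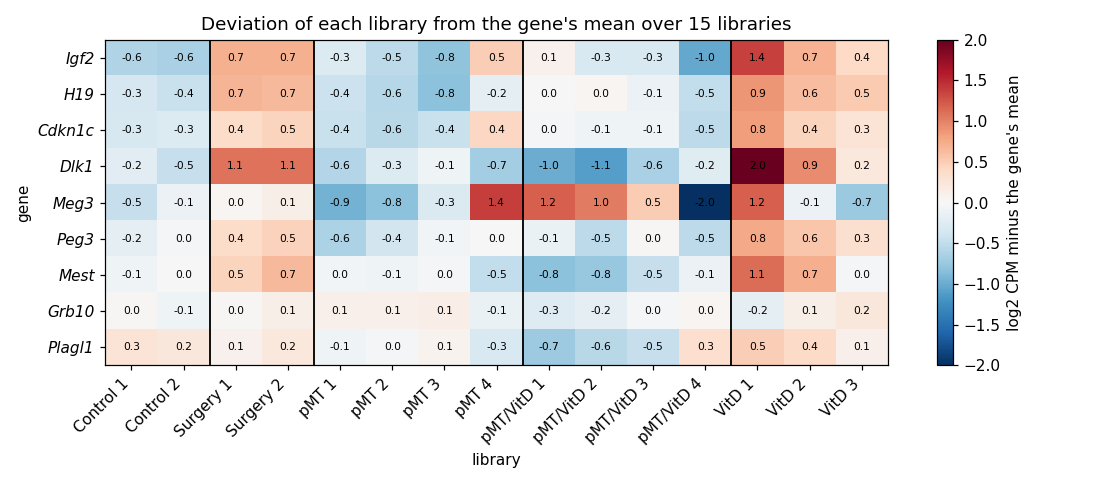
Log2 CPM of each gene (rows) in each library (columns) minus the gene's mean over the 15 libraries, from -1.99 (blue) to 1.97 (red). Igf2, H19, Cdkn1c and Dlk1 are red in the Surgery and VitD columns, and the Meg3 row is red in pMT 4, pMT/VitD 1 to 3 and VitD 1 and deepest blue in pMT/VitD 4.

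The members differed in level per length, as mean TPM over the 15 libraries. H19 came first at 4010 ± 2000 TPM (SD), followed by Igf2 at 77.1 ± 47.8, Grb10 at 21.6 ± 6.31, Dlk1 at 16.5 ± 14.4, Cdkn1c at 14.3 ± 5.72, Mest at 7.36 ± 3.86, Meg3 at 5.2 ± 2.87, Peg3 at 3.14 ± 1.32 and Plagl1 at 1.19 ± 0.404 TPM. The lowest H19 library, at 2430 TPM, was above the highest Igf2 library, at 202 TPM, and the lowest Igf2 library, at 33.5 TPM, was just above the highest Grb10 library, at 33 TPM. From Grb10 down, each gene's range overlapped that of the next, and the order differed between groups. Dlk1 was above Grb10 in Surgery (means of 30.6 and 27.2 TPM) and in VitD (33.7 and 20.6 TPM), while Cdkn1c was above Dlk1 in Control (9.97 and 9.11 TPM), pMT (11.6 and 10.2 TPM) and pMT/VitD (10.3 and 6.73 TPM).

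Promoter sequence was compared for the members, since 6 of them moved together. RefSeq entries on the GRCr8 build were matched for 7 of the 9, with 8 windows in all, and H19 and Cdkn1c had none in the table. The 250 bases before each annotated start are shown for the called members with an entry and for Meg3, which shares a domain with Dlk1 and was not called. Capitals mark exact matches, on either strand, to GGGGCCCC (the core of the motif known for the protein of Plagl1), CAGCTG (an E-box that myogenic factors bind), GGGCGG (the GC box) or TATAAA (the TATA box). Igf2 has 2 annotated starts, both shown.
Igf2 (chr1:207253981-207254230, minus strand): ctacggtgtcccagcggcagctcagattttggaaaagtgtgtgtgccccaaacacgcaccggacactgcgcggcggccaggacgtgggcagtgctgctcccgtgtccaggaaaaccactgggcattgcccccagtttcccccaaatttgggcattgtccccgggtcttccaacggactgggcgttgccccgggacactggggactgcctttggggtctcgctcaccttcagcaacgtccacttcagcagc
Igf2 (chr1:207250476-207250725, minus strand): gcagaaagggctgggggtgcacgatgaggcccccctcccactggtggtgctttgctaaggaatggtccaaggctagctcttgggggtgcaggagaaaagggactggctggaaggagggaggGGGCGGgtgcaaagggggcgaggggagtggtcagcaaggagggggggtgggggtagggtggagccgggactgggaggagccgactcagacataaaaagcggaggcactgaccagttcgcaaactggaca
Dlk1 (chr6:134192347-134192596, plus strand): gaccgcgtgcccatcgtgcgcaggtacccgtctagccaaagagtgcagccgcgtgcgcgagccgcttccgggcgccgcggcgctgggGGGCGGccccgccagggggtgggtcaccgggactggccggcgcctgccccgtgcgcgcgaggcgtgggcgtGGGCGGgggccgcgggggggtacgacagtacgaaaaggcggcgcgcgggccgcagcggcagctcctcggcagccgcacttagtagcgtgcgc
Meg3 (chr6:134273806-134274055, plus strand): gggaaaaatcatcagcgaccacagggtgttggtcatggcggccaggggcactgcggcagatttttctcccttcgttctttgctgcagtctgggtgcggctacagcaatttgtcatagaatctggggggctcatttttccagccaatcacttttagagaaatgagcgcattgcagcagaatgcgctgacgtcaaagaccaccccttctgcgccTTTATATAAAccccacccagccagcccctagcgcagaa
Peg3 (chr1:76130744-76130993, plus strand): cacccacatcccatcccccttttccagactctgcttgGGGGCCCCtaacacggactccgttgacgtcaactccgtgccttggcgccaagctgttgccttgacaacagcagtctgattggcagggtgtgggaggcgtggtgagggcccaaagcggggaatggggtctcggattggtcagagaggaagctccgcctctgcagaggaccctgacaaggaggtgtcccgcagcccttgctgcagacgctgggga
Mest (chr4:60321564-60321813, plus strand): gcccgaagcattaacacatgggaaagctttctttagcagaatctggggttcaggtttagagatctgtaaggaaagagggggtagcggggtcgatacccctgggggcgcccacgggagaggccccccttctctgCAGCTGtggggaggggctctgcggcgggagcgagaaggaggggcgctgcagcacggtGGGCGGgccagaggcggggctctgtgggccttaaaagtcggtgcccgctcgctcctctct
No motif was common to these windows. GGGGCCCC was found once, in Peg3, and is held by 0.753% of the 33469 windows in the table, each also taken as the 250 bases before a start. CAGCTG was found in Mest and is held by 12% of windows, and GGGCGG, in Igf2, Dlk1 and Mest, by 30.5%. TATAAA was found only in Meg3, as overlapping matches on the opposite strands, and is held by 12.9% of windows. The windows also differed in CpG dinucleotides, the sites of DNA methylation, with 41 in Dlk1, 15 in the first Igf2 window and in Mest, 11 in Peg3, 10 in Meg3 and 7 in the second Igf2 window, beside a median of 5 over all windows. The window of Grb10, which was not called, had 38 CpG and 4 matches to GGGCGG. A match is a description of the letters only, and methylation was not measured.

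Other imprinted genes were called at about the share of all genes, and in both directions. Of 53 listed, 45 were in the table and 38 were tested, with a median log2 fold change of -0.04 in the pMT groups against Surgery and VitD. The test called 10, of which 7 were higher in the pMT groups and 3 lower, where 23.3% of all genes were called, 10% as higher and 13.3% as lower. It called 11 without pMT 4 and pMT/VitD 4, 7 higher and 4 lower, where 28.5% of all genes were called. The split depended on the scaling, since library size alone gave 2 higher and 11 lower while it moved the median of all genes to -0.23. Asb4, a ubiquitin ligase subunit, was higher in every pMT-group library, at 13.6 to 17.8 CPM, than in every Surgery and VitD library, at 6.19 to 11 CPM (log2 fold change 0.72 ± 0.119 SE, adjusted p = 0.000839 by edgeR). Kcnq1, a potassium channel gene of the Cdkn1c domain (0.57 ± 0.116 SE), Snrpn, a splicing protein gene (0.68 ± 0.207 SE), and Cobl, an actin nucleator gene beside Grb10 (0.28 ± 0.0758 SE), were also higher. Dio3, described above, Peg12 (-0.89) and Osbpl5 (-0.33) were lower. The most abundant were Dcn, encoding the matrix proteoglycan decorin, Gnas, encoding a G protein subunit, and Cd81, a membrane protein gene near Igf2. Their log2 fold changes were -0.05, 0 and -0.18, and none was called.

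**Figure D4:**
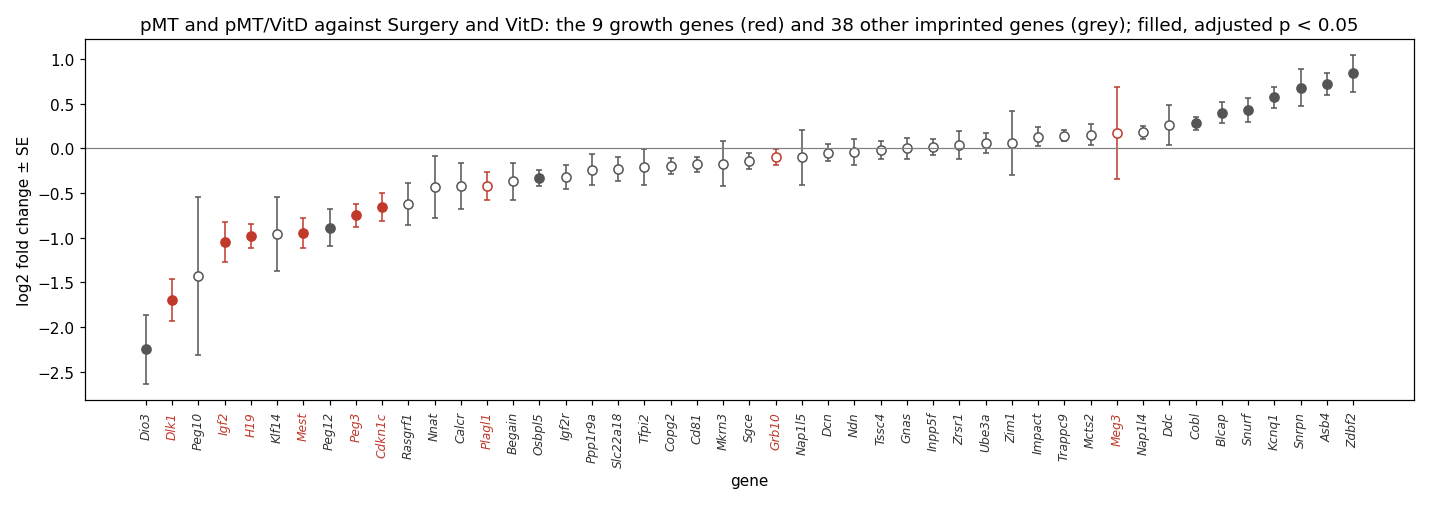
Log2 fold change ± SE (vertical axis) in the pMT and pMT/VitD libraries against the Surgery and VitD libraries for the 9 growth genes (red) and the 38 other imprinted genes tested (grey), in order of the value. Filled points have an adjusted p under 0.05. The filled red points all lie below 0, from -1.7 for Dlk1 to -0.66 for Cdkn1c, while the filled grey points lie on both sides.

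The genes next to the members in GRCr8 order were listed after the members' values were seen, as the 5 tested genes on each side. Of 66 such genes, 15 were called in the pMT groups against Surgery and VitD, 7 higher and 8 lower, a share close to the 23.3% of all genes called. Their median log2 fold change was 0.02. Cep41, which encodes a centrosomal protein and lies beside Mest, was among the lower ones (-1.02 ± 0.173 SE, adjusted p = 0.001 by edgeR), and Copg2 and Klf14 on the other side of Mest were not called.

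The receptors and partners of IGF2 gave 6 tested genes of 11 listed, none of them called by edgeR in the 9 comparisons made for the lists with all libraries. Igf2r, the receptor that clears IGF2 and is itself imprinted in rodents, had a log2 fold change of -0.32 ± 0.133 SE in the pMT groups against Surgery and VitD, and Igf1r, the signalling receptor, -0.33 ± 0.124 SE (adjusted p = 0.0996 and 0.0694). When pMT 4 and pMT/VitD 4 were left out, 2 of the 6 were called as lower, where 28.5% of all genes were called in either direction. Among 7 tested relatives of the members that are not imprinted, 2 were lower with all libraries, where 13.3% of all genes were lower. Cdkn1a, which encodes the inhibitor p21, rose from 9.23 and 8.62 CPM in Control to 55.6 and 54.1 CPM in Surgery (log2 fold change 2.62 ± 0.437 SE, adjusted p = 0.0134 by edgeR). It was at 7.96 to 14 CPM in the pMT groups and 32.1 to 114 CPM in the other operated groups (log2 fold change -2.4 ± 0.234 SE). Its other relative Cdkn1b (-0.04 ± 0.127 SE) and the growth factor gene Igf1 (-0.16 ± 0.105 SE) were not called, nor was Grb14 (0.08 ± 0.0706 SE). The call of Dlk2 rested on 50 counts in all libraries together.

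Igf2, H19 and Dlk1 are known to come on in regenerating fibres. The 16 listed genes of regenerating or denervated fibres were chosen with earlier results of these data known, so their counts are descriptive. Of these 16 genes, 12 were lower in the pMT groups than in Surgery and VitD and none was higher, where 13.3% of all genes were lower. Their median log2 fold change was -1.29, and 7 were higher in Surgery than in Control, where 1.25% of all genes were higher. Myod1 (0.1), Pax7 (-0.05), Hdac4 (-0.25) and Myh8 were not called in the pMT groups against Surgery and VitD. Leaving out pMT 4 and pMT/VitD 4, 13 were lower in the pMT groups, where 28.5% of all genes were called in either direction. Ankrd1, a stress-responsive sarcomere gene, measured 7.07 to 15.3 CPM in the pMT groups and 84.7 to 752 CPM in Surgery and VitD (log2 fold change -4.78 ± 0.404 SE). Actc1, the fetal actin (-3.15 ± 0.29 SE), Mymx, which drives myoblast fusion (-2.7 ± 0.277 SE), Chrna1, an acetylcholine receptor subunit (-1.44 ± 0.171 SE), Ncam1, an adhesion molecule of denervated fibres (-1.15 ± 0.139 SE), and Myog, the differentiation factor myogenin (-1.09 ± 0.111 SE), were lower as well. So was the embryonic myosin Myh3 (-3.71 ± 0.461 SE), while the perinatal myosin Myh8 had a value of -0.28 ± 0.331 SE.

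Macrophage markers and most fibroblast markers were lower in the pMT groups. Called fibre markers were higher, called smooth muscle and pericyte markers were lower, and satellite cell and endothelial markers went in both directions. In the pMT groups against Surgery and VitD, 23.3% of all genes were called, 13.3% as lower and 10% as higher. All 5 macrophage markers were lower in the pMT groups, with a summed level of 62.1 to 121 CPM beside 168 to 190 CPM in Surgery and VitD. Of 6 fibroblast markers 4 were lower (Lum, Col1a1, Col3a1 and Thy1), with a sum of 1810 to 2830 CPM beside 3560 to 6680 CPM, while Dcn and Pdgfra were not called. Most of that sum was collagen RNA. Col3a1 had means of 1190 CPM in the pMT groups and 2600 CPM in Surgery and VitD, and Col1a1 of 419 and 1140 CPM. The means of Dcn were 661 and 688 CPM. Of 5 satellite cell markers, Myf5 and Vcam1 were lower, Cdh15 was higher, and Pax7 was at -0.05 ± 0.114 SE, with a sum of 35.9 to 42.2 CPM beside 39.6 to 43.2 CPM. Of 5 endothelial markers Kdr was higher and Pecam1 lower, of 5 smooth muscle and pericyte markers Acta2 and Pdgfrb were lower, and of 8 fibre markers Myh4 and Des were higher, with no adipocyte or Schwann cell marker called. With scaling by library size alone, 2 Schwann cell markers were called as lower, 1 fibre marker was higher, and no endothelial or satellite cell marker was higher. That scaling called 5473 of 17201 genes. All 5 macrophage and 5 of the 6 fibroblast markers were lower without pMT 4 and pMT/VitD 4, where 28.5% of all genes were called in either direction. No defining marker was at 0 in any library, and the part of these cells in the members' levels was not tested.

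The genes whose centred log2 CPM lay nearest to that of a member over the 15 libraries, among 11398 with a mean of at least 1 on the log2 scale, were named for the 5 members called over the 5 groups. For Igf2 they were Acp5, Clec11a and Myog, with a mean absolute difference of 0.139, 0.149 and 0.161 on the log2 scale. For H19 they were Aif1 (0.137), Glipr1 (0.138) and Cdkn1c (0.158), so that another member was among its 3 nearest genes. For Dlk1 they were Eln, Pla2g2d and Col1a1 (0.153, 0.168 and 0.171). For Peg3 they were Olfml2b, Mical1 and Mx2 (0.124, 0.125 and 0.129), and for Mest they were Ms4a6a, Cd68 and Col5a2 (0.115, 0.12 and 0.121).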

How the data were processed

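The authors trimmed paired-end NovaSeq reads with Trimmomatic 0.38, aligned them to rn6 with HISAT2 2.1.0 and quantified them with StringTie 2.1.3b. They deposited raw counts per gene, with FPKM and TPM columns of the same libraries. Strand and multi-mapped reads are not given in the sources used here, so overlapping genes are uncertain. Counts served for every test, TPM for levels per length, and the deposited FPKM values were not used.

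Counts were tested with edgeR 4.0.16 in R 4.3.3 (glmQLFit with robust estimation, TMM, filterByExpr, all 15 libraries, group as the only term). A gene was called where its p, adjusted by Benjamini-Hochberg over the 17201 tested genes, was under 0.05. SE and 95% intervals are on the log2 scale. The fit was tested on simulated data. Alternatives were other scalings and filters, DESeq2 1.42.0, a replicate block, a length correction, fits of the groups compared only, and leaving out libraries. Log2 CPM used a prior count of 2.

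The members, the lists and the libraries left out were chosen with earlier results of these data known. Genes named from a list are those called over the 5 groups or in operated against Control, at most 6 by p, plus at most 3 of the most abundant. Dlk2, Peg12, Osbpl5, Igf1r, the neighbours and the markers named were chosen after their values were seen.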

Additional observations from a re-analysis of the deposited data

Results flagged for a closer look

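Values of a member in the groups of 4 libraries were checked for a library far from the rest of its group by Dixon's criterion at the 95% level. Of 18 sets, 4 were picked out, where chance gives about 0.9. Cdkn1c measured 26.1 CPM in pMT 4, where the nearest of its group was 14.4 CPM, and this value lies between the 25.5 and 26.8 CPM of the Surgery libraries. In TPM, Cdkn1c was at 13.8 in pMT 4 and at 19.9 and 20.8 in the Surgery libraries. It measured 13.7 CPM in pMT/VitD 4, where the nearest was 18.5 CPM, and this value lies within the 13.3 to 14.4 CPM of pMT 1 to 3. Meg3 measured 16.5 CPM in pMT 4, where the nearest was 5.15 CPM, and pMT/VitD 1 to 3 held 9.03 to 14.5 CPM. Mest measured 4.57 CPM in pMT 4, where the nearest was 6.09 CPM, and pMT/VitD 1 to 3 held 3.65 to 4.71 CPM. All these values belong to pMT 4 or pMT/VitD 4, whose labels were kept as given.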

How the results depend on the processing

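The 6 members called lower in the pMT groups against Surgery and VitD were called in each of the 23 alternatives run, and leaving out libraries gave 6 to 7 members. Of 1494 values of single members under an alternative, 1332 kept their direction and their side of the threshold, 73 lost a call, 67 gained one and 22 changed sign. The cause of a changed value was not tested.

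Members called changed as follows. Scaling by library size alone gave 3 in Surgery against Control, 5 in VitD against Control and 7 in pMT/VitD against Surgery, and it moved the median log2 fold change of all genes to 0.25, 0.27 and -0.32. Library size and DESeq2 each gave 3 in pMT against Surgery, where 337 and 747 of 17201 genes were called. DESeq2 gave 3 in Surgery against Control, 5 in VitD against Control, 5 in pMT/VitD against Surgery and 1 in operated against Control. Keeping any gene with at least 1 count gave 0 in Surgery against Control and 1 in pMT against Surgery, where 198 and 298 of 24728 genes were called. Removing the length trend gave 1 in pMT against Surgery, 3 in pMT/VitD against Surgery and 4 in VitD against Control. In the same order, 503, 1704 and 2376 of 17201 genes were called. Fitting only the groups compared gave 7 in Surgery against Control, 3 in pMT/VitD against Surgery and 0 in VitD against Control. Leaving out libraries gave 0 to 3 in Surgery against Control, 0 to 6 in VitD against Control, 0 to 4 in pMT against Surgery, 0 to 7 in pMT/VitD against Surgery and 0 to 4 in pMT/VitD against pMT. The upper value is the one without pMT 4 and pMT/VitD 4 together, apart from VitD against Control, where it is the one without VitD 3 and that without both gives 5.

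Genes called over the whole table also moved. The test over the 5 groups gave 3579 with library size, 3708 with DESeq2 and 1080 with the block. Surgery against Control gave 997 with library size, 1001 with DESeq2, 548 with the length trend removed, 106 with the block and 5289 in the fit of its groups alone. VitD against Control gave 2795, 2471 and 2376 with library size, DESeq2 and the length trend removed, and 96 in the fit of its groups alone. pMT against Surgery gave 747 with DESeq2, 503 with the length trend removed, 520 in the fit of its groups alone and 78 with the block. pMT/VitD against Surgery gave 3250 with library size, 2226 with DESeq2, 836 in the fit of its groups alone and 350 with the block. Operated against Control gave 204 with DESeq2, 10 with the length trend removed, 7 with at least 10 counts in every library, and 2 with library size or with the block. DESeq2 gave 1 in pMT/VitD against Control and 93 in pMT/VitD against pMT, and the block gave 2415 in the pMT groups against Surgery and VitD. Leaving out libraries gave 1133 to 5125 over the 5 groups, 8 to 1022 in Surgery against Control, 13 to 2589 in VitD against Control, 27 to 740 in pMT against Surgery, 122 to 3462 in pMT/VitD against Surgery, 2007 to 4895 in the pMT groups against Surgery and VitD, 0 to 3136 in pMT/VitD against pMT and 0 to 325 in the interaction.

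The replicate numbers of the titles did not pair the libraries. Over 24 pairs of libraries with the same number, the correlation of their deviations ran from -0.5 to 0.17, and 2 pairs were over 0.1. With the replicate number as a block, the 5 groups called 3 members, VitD against Control called 2, and Surgery against Control, pMT against Surgery and pMT/VitD against Surgery called 0.

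Signs changed for values that were not called. With library size alone the log2 fold change was 0.17 for Plagl1 in Surgery against Control, -0.14 for Meg3 in pMT against Surgery, 0 for Grb10 in VitD against Surgery and -0.16 for Meg3 in the pMT groups against Surgery and VitD. Leaving out libraries, Meg3 ran from -0.11 to 0.97 in VitD against Control, from -0.75 to 0.33 in pMT against Surgery and from -0.25 to 0.54 in the pMT groups against Surgery and VitD, and Grb10 ran from -0.07 to 0.03 in pMT against Surgery. In VitD against Surgery the ranges were -0.16 to 0.36 for Igf2, -0.1 to 0.09 for H19, -0.06 to 0.24 for Cdkn1c, -0.47 to 0.45 for Dlk1, -0.47 to 0.61 for Meg3, -0.16 to 0.37 for Mest and -0.1 to 0.09 for Grb10.

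For the lists in the pMT groups against Surgery and VitD, alternatives chosen after seeing the data gave 2, 3 and 1 IGF2 receptors and partners (without pMT 4 and pMT/VitD 4, with library size and with the length trend removed), and 1 relative of the members without those libraries and 3 with library size. In these 3 settings, in the same order, 4895 of 17182, 5473 of 17201 and 4821 of 17201 genes were called.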
